A study of Mus musculus with 6 samples.

Results

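The genes described here code for the machinery that copies DNA and for the enzymes that supply its building blocks, measured in Pml knockout and WT neural stem cells. They are 38 of the 24421 gene symbols in the deposited count table, chosen by name and role: origin licensing and firing, DNA polymerases and primase, the sliding clamp and its loader, single-strand DNA binding, Okazaki fragment maturation, nucleotide synthesis and fork protection. The Mcm helicase was left out of the set. Neural stem cells came from brains of E13.5 mouse embryos and were cultured as neurospheres, floating clusters of dividing progenitors, with epidermal growth factor and fibroblast growth factor 2 at 20 ng/ml each in 20% oxygen. The spheres were harvested 4 days after the cells had been dissociated. The Pml knockout and the WT had 3 libraries each, all given the same batch in the labels. Pml codes for the scaffold protein of PML nuclear bodies. The labels state neither the part of Pml that was removed nor whether the replicates were separate embryos or cultures, so the p-values cover only how these 6 libraries vary, and that variation may be technical.

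DNA replication is set up in G1 phase, when the origin recognition complex, Cdc6 and Cdt1 place the inactive helicase on DNA, and it starts in S phase, when the Cdc7 kinase with its subunit Dbf4 activates that helicase. Polymerase alpha with primase lays primers, polymerase epsilon extends the leading strand and polymerase delta the lagging strand, both held on DNA by the Pcna ring that the Rfc complex loads. The single-strand binding complex Rpa coats exposed DNA, Fen1 and Lig1 process and join Okazaki fragments, and ribonucleotide reductase, thymidylate synthase and related enzymes supply the deoxynucleotides. Many of these genes are transcribed in a wave around the G1 to S transition under E2F transcription factors, and in the embryonic brain they mark cycling progenitors. In bulk samples fewer cycling cells and less RNA per cell cannot be told apart.

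The knockout libraries held 4980638 to 5917505 counts and the WT libraries 1775152 to 4413318. Pml itself had 14, 23 and 5 reads in knockout replicates 1 to 3, against 36, 35 and 44 in WT replicates 1 to 3 (log2 fold change -2.81, SE 0.661, edgeR adjusted p 0.197), and a 3′ tag outside the removed part would not report on the deletion. The libraries differ beyond genotype. Reads of the 45S pre-ribosomal RNA took 14.6% to 17.6% of the knockout counts, against 41.9%, 39.8% and 19.6% in WT replicates 1, 2 and 3. Hepatocyte markers, 19 of 20 listed genes being in the table and 0 of those without reads, summed to 79.98 to 110.0 CPM (read counts scaled to a common library size) in the knockout, against 552, 986 and 155 CPM in WT replicates 1, 2 and 3. Neural stem cell markers summed to 5458 to 6519 CPM in the knockout and 4666 to 5264 CPM in WT, of which Fabp7 averaged 1460 ± 726 CPM in the knockout and 378 ± 318 CPM in WT (SD, n = 3 each), a gap wider than that of the sums. Of the 9 markers tested, 6 had positive and 3 negative fold changes, the negative ones being Nes (-0.46), Sox2 (-0.23) and Hes5 (-0.26). Erythroid markers stayed at or under 0.595 CPM in every library, and microglial markers at or under 2.98 CPM except in WT replicate 2, with 24.8 CPM.

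All 38 replication genes passed the filter on low counts, with 58 to 7915 reads each over the 6 libraries. Levels are 3′ tag counts, which do not scale with transcript length. They are compared here between libraries and not between genes. No member passed the threshold in either direction by edgeR's quasi-likelihood test (0 higher and 0 lower at a Benjamini-Hochberg adjusted p under 0.05), where 0.00884% of all 11317 tested genes passed higher and 0% lower. At an unadjusted p under 0.05, 8 members were lower in the knockout and 0 higher, against backgrounds of 9.19% and 6.7% of all tested genes. The fold change was negative for 32 of 38 members, or for 23 of 38 with library totals as the only scaling. Its median was -0.43 on the log2 scale, beside -0.01 over all tested genes. In 10 members every knockout library lay below every WT library and in 0 members above, against 11.3% and 12.3% of all tested genes.

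The WT libraries lay far apart in this set. WT replicate 3 was the highest of the 6 libraries for 31 of 38 members, against 17% of all tested genes. WT replicate 2 was the lowest for 18 members, against 35.2% of all tested genes, and knockout replicate 2 for 17, against 14.5%. The 3 knockout libraries all lay below WT replicate 3 in 37 of 38 members, a position held by 32.2% of all tested genes. They all lay below WT replicate 1 in 21 members (37% of all tested genes) and below WT replicate 2 in 11 members (39.1%). They all lay above WT replicate 2 in 18 members (44.8%).

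**Figure D1:**
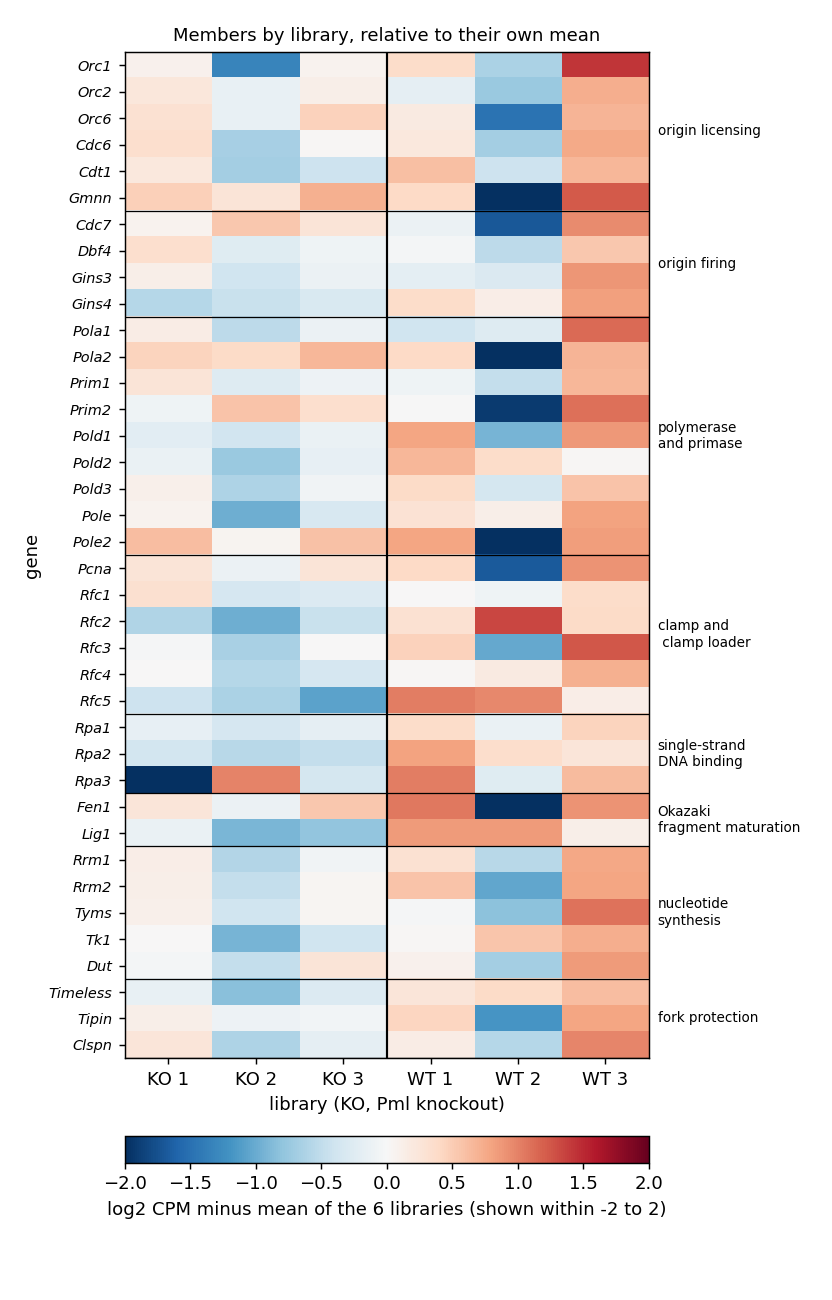
Heat map of the 38 genes (rows, grouped by role) in the 3 Pml knockout and 3 WT libraries (columns); colour is log2 CPM minus the gene's mean over the 6 libraries, from blue (low) to red (high). WT replicate 3 was the highest library for 31 genes, and WT replicate 2 or knockout replicate 2 the lowest for 18 and 17 genes.

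The median and the count of members moved with single libraries of both genotypes. Without WT replicate 2 all 38 fold changes were negative, with a median of -0.70, and 19 members were lower and 0 higher before adjustment at 0.05, against 8.8% and 8.34% of all tested genes. Without WT replicate 3, 21 of 38 were negative, the median was -0.06, and 5 members were lower and 0 higher, against 16.7% and 15.3%. Without knockout replicate 2, 30 of 38 were negative, the median was -0.25, or -0.24 relative to that of all genes, and 4 members were lower and 0 higher, against 3.98% and 2.42%. Without knockout replicate 3 the median was -0.46, and 5 members were lower and 0 higher, against 4.74% and 3.24%. With library totals as the only scaling 3 members were lower and 0 higher, against 1.86% and 14.2%. With WT replicate 3 as the only WT library, its variance taken to be like that of the knockout libraries, 38 of 38 were negative, the median was -0.80 and 29 members had an unadjusted p under 0.05, 0 of them higher, against 7.76% of all tested genes lower and 9.87% higher. These comparisons share most of their libraries.

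A match to promoter sequence was available for 32 of the 38 genes in RefSeq windows of the GRCm38.p6 build that run from 250 bases before to 50 after each annotated start; Gmnn, Gins4, Prim2, Pole, Rfc2 and Tipin had none in that table. Each window was searched on both strands for E2F-type words (TTTCCCGC, TTTCGCGC, TTTGCCGC or TTTGGCGC), for CCAAT and for the GC box GGGCGG, which can overlap one another. An E2F-type word was present in 11 of the 38 windows of these genes (28.9%), against 2.26% of all 32851 windows. CCAAT was in 44.7% of the members' windows, against 37.4% of all, and the GC box in 63.2%, against 35.7%. The 11 genes with an E2F-type word were Cdc6, Cdt1, Clspn, Gins3, Lig1, Orc1, Pola1, Pold1, Pold3, Pole2 and Rfc3. In 10 of these 11, WT replicate 3 was the highest library, as it was in 16 of the 21 matched genes without such a word. Their median log2 fold changes were -0.49 and -0.39. A word match is a description of the letters and not of binding.

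The 150 bases before the RefSeq start are shown for the 5 genes with an E2F-type word wholly in that stretch. Rfc3 has a further such word that begins at the start and is not shown. Rpa2 and Rfc5 are shown for contrast, having differed most between genotypes among matched genes without such a word. GENCODE M21 starts can differ: Cdc6 begins at chr11:98907801 there, so its whole stretch lies inside the gene. Orc1 (chr4:108579423), Gins3 (chr8:95633453), Rfc3 (chr5:151651242), Rpa2 (chr4:132768332) and Rfc5 (chr5:117389047) begin within their stretches. Pola1 begins at chrX:93632155, directly after its stretch. By these starts the marked E2F-type words of Orc1, Gins3, Cdc6 and Rfc3 lie inside the gene, and that of Pola1 lies before it. Capitals mark E2F-type words and CCAAT, in either orientation. All are written 5′ to 3′ on the gene's strand, from RefSeq GRCm38.p6. Orc1 is chr4:108579304-108579453 on the plus strand, Gins3 is chr8:95633409-95633558 on the plus strand and Pola1 is chrX:93632156-93632305 on the minus strand. Cdc6 is chr11:98908001-98908150 on the plus strand and Rfc3 is chr5:151651209-151651358 on the minus strand. Rpa2 is chr4:132768210-132768359 on the plus strand and Rfc5 is chr5:117389024-117389173 on the minus strand.
Orc1: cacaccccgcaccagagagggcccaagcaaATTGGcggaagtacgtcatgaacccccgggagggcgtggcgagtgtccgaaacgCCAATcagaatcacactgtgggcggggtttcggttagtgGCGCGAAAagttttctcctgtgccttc
Gins3: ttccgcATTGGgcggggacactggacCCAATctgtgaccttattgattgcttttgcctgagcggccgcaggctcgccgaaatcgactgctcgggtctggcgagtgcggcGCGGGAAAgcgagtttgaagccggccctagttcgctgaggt
Pola1: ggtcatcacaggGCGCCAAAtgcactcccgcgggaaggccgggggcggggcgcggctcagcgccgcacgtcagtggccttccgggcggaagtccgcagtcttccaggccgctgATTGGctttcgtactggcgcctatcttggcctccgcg
Cdc6: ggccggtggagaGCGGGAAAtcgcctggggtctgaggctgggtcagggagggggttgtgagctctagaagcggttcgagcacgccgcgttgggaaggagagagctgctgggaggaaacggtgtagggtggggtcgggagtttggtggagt
Rfc3: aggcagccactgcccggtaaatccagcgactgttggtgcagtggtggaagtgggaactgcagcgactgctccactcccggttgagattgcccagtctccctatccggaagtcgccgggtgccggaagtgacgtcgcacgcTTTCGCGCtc
Rpa2: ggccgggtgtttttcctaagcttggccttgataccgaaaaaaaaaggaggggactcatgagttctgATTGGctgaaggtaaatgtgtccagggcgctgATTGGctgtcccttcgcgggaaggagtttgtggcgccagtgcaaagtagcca
Rfc5: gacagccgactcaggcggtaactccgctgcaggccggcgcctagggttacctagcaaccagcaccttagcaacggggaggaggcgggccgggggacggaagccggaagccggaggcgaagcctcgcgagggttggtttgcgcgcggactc
Within these 150 bases, Orc1, Gins3 and Pola1 carry an E2F-type word together with CCAAT, Cdc6 and Rfc3 carry the word without CCAAT, and Rpa2 carries CCAAT alone. The Rfc5 stretch holds neither set of letters.

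Among origin licensing genes the knockout and WT libraries overlapped for all 6 members, 4 of 6 fold changes were negative, and the median was -0.14 (log2). WT replicate 3 was the highest library for each of the 6. Orc1, the largest subunit of the origin recognition complex, had 25, 8 and 25 reads in knockout replicates 1 to 3, against 15, 2 and 43 in WT replicates 1 to 3 (log2 fold change -0.94, SE 0.681, edgeR adjusted p 0.511). Its counts were low in each library. Scaled to library size it had 3.76, 1.32 and 3.73 CPM in the knockout, against 4.46, 1.60 and 9.76 CPM in WT. Knockout replicate 2 was the lowest library, and WT replicate 2 lay among the knockout values. Cdt1, which loads the helicase with Cdc6 and is destroyed once S phase starts, had 38.1, 20.4 and 24.6 CPM in the knockout, against 49.7, 24.0 and 52.0 CPM in WT (log2 fold change -0.62, SE 0.374, edgeR adjusted p 0.435). WT replicates 1 and 3 stood above all knockout libraries, while WT replicate 2 lay among them. Cdc6, the loading ATPase, had 30.8, 15.3 and 24.8 CPM in the knockout and 28.0, 14.4 and 41.3 CPM in WT. Its fold change of -0.27 on the log2 scale (SE 0.415) became 0.11 without WT replicate 3 and 0.076 with library totals. Orc6, the smallest subunit of the complex, had 41.2, 29.8 and 45.6 CPM in the knockout, against 37.5, 11.2 and 53.1 CPM in WT. Its value of 0.15 (SE 0.457) became -0.22 without WT replicate 2. Gmnn, the geminin that holds Cdt1 inactive after origins have fired, shows the reach of WT replicate 2. It had 27.8, 23.9 and 32.7 CPM in the knockout and 26.2, 1.60 and 47.0 CPM in WT, and the WT replicate 2 value is 2 reads. Orc2 had a fold change of -0.0030 (log2, SE 0.368).

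Origin firing genes gave 1 member with separate genotypes. Gins4, a subunit of the GINS complex that joins the Mcm ring to form the active helicase, had 13.7, 14.8 and 16.4 CPM in the knockout, against 26.2, 21.6 and 35.9 CPM in WT. Every knockout library lay below every WT library, and the spread within the knockout was small (15.0 ± 1.36 against 27.9 ± 7.29 CPM, SD, n = 3 each). The log2 fold change was -0.91 (SE 0.320), with an unadjusted p of 0.0169 and an adjusted p of 0.240 by edgeR. Over 19 alternatives the fold change stayed between -1.26 and -0.52 (log2), and the edgeR, DESeq2 and limma adjusted p reached 0.725. Its partner subunit Gins3 had 15.6, 10.9 and 13.3 CPM in the knockout, against 12.5, 11.2 and 26.8 CPM in WT, where WT replicate 3 stood apart. The Gins3 fold change of -0.38 (log2, SE 0.411) was 0.15 without that library. Dbf4, the activating subunit of the Cdc7 kinase, had 103, 68.6 and 77.0 CPM in the knockout and 78.9, 56.0 and 119 CPM in WT (log2 fold change -0.04, SE 0.322; 0.32 with library totals). Cdc7 itself had 10.7, 14.8 and 12.2 CPM in the knockout, against 9.23, 2.40 and 19.7 CPM in WT (log2 fold change 0.17, SE 0.554). Kinase and activator thus overlapped between genotypes, with WT replicate 2 lowest for both.

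Of 9 polymerase and primase genes 6 had negative fold changes, with a median of -0.43 on the log2 scale. Pold2, the accessory subunit that links the parts of polymerase delta, had 34.9, 22.8 and 34.0 CPM in the knockout, against 60.4, 48.8 and 38.8 CPM in WT. The genotypes did not overlap, although knockout replicate 1 and WT replicate 3 lay close together. Its log2 fold change was -0.69 (SE 0.308), with an unadjusted p of 0.0489 and an edgeR adjusted p of 0.313. Pole, the catalytic subunit of polymerase epsilon, had 25.3, 12.2 and 19.2 CPM in the knockout, against 29.2, 25.6 and 42.2 CPM in WT. Knockout replicate 1 and WT replicate 2 lay next to each other, and the fold change was -0.79 (log2, SE 0.362, unadjusted p 0.0545, edgeR adjusted p 0.323). Pold1, the catalytic subunit of polymerase delta, had 35.4, 31.5 and 37.4 CPM in the knockout, against 71.1, 20.8 and 75.4 CPM in WT. WT replicates 1 and 3 were both above the knockout range and WT replicate 2 was below it, so the fold change of -0.71 (log2, SE 0.418, edgeR adjusted p 0.425) became -1.07 without WT replicate 2. Pold3, a further delta subunit that contacts Pcna, had 31.6, 19.1 and 27.9 CPM in the knockout and 38.1, 22.4 and 43.6 CPM in WT (log2 fold change -0.43, SE 0.343). Pola1, the catalytic subunit of polymerase alpha, is named here after its values were seen. It had 53.1, 33.0 and 44.2 CPM in the knockout, against 36.0, 39.2 and 105 CPM in WT, and only WT replicate 3 lay outside the knockout range.

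Pola2, Pole2 and Prim2, accessory subunits of polymerase alpha, polymerase epsilon and primase, were also chosen after their values were seen. Their fold changes were 0.40, 0.10 and 0.07 (log2), the positive ones of this role. Each had few reads in WT replicate 2, where Pola2 had 1, Prim2 had 4 and Pole2 had 0, which allows up to 3 counts or 2.40 CPM. In WT replicate 3, Pole2 had 10.2 CPM and Prim2 had 31.8 CPM, above the knockout ranges of 5.94 to 8.88 and 14.0 to 22.1 CPM. Prim1, the catalytic primase subunit, had a fold change of -0.14 (log2, SE 0.358).

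The clamp loader held the members with the smallest p. Rfc5 (ENSMUSG00000029363.14, chr5:117378103-117389047 on the minus strand, GRCm38), a small Rfc subunit, had 160, 125 and 102 reads in the knockout, against 219, 78 and 155 in WT. That is 24.1, 20.6 and 15.2 CPM in the knockout, against 65.2, 62.4 and 35.2 CPM in WT. All knockout libraries lay below all WT libraries, with WT replicates 1 and 2 well above WT replicate 3. The WT level was 2.70-fold that of the knockout (log2 fold change -1.43, SE 0.341), with an unadjusted p of 0.00177 and an adjusted p of 0.197 by edgeR.

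Rfc2 (ENSMUSG00000023104.9, chr5:134581366-134601805 on the plus strand, GRCm38), another small subunit of the same ring, had 232, 163 and 261 reads in the knockout, against 219, 166 and 305 in WT. Scaled to library size it had 34.9, 26.9 and 38.9 CPM in the knockout, against 65.2, 133 and 69.2 CPM in WT. Here WT replicate 2 stood above the other WT libraries, and the genotypes did not overlap. The log2 fold change was -1.39 (SE 0.341, unadjusted p 0.00216, edgeR adjusted p 0.197).

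The last 1000 bases of Rfc5 and Rfc2 each hold a gene on the opposite strand in the GENCODE M21 annotation, and the strand setting of the counts is not given in the sources used here. Rfc5 shares 499 bases with Wsb2, which had 448, 412 and 372 reads in the knockout, against 323, 218 and 293 in WT (log2 fold change -0.81, unadjusted p 0.0451, edgeR adjusted p 0.304). Rfc2 shares 1784 bases with Lat2, which had 21, 29 and 18 reads in the knockout, against 4, 5 and 15 in WT (log2 fold change 0.37). Their part in the Rfc values was not tested. Of all members, 7 have an opposite-strand gene in their last 1000 bases, the others being Orc1, Orc2, Rfc4, Fen1 and Tk1. A same-strand gene lies there in 2 members, Cdt1 and Pole2.

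The other clamp genes overlapped between genotypes. Rfc4 had 20.6, 13.7 and 16.1 CPM in the knockout, against 20.5, 22.4 and 33.4 CPM in WT (log2 fold change -0.61, SE 0.337, edgeR adjusted p 0.397), and its end shares 194 bases with Eif4a2, whose own fold change was 1.25. Rfc3 had 38.2, 24.7 and 39.4 CPM in the knockout, against 53.6, 18.4 and 92.4 CPM in WT. Its fold change of -0.71 (log2, SE 0.478) was -0.13 without WT replicate 3, and -1.44 with WT replicate 3 as the only WT library. Rfc1, the large subunit, had a fold change of -0.17 (log2, SE 0.278). Pcna, the ring itself, had 70.4, 54.1 and 70.3 CPM in the knockout, against 77.1 and 17.6 CPM in WT replicates 1 and 2 and a higher value in WT replicate 3, for a fold change of -0.10 (log2, SE 0.495). Pcna has 2 named pseudogenes in the annotation, so its counts are less certain.

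**Figure D2:**
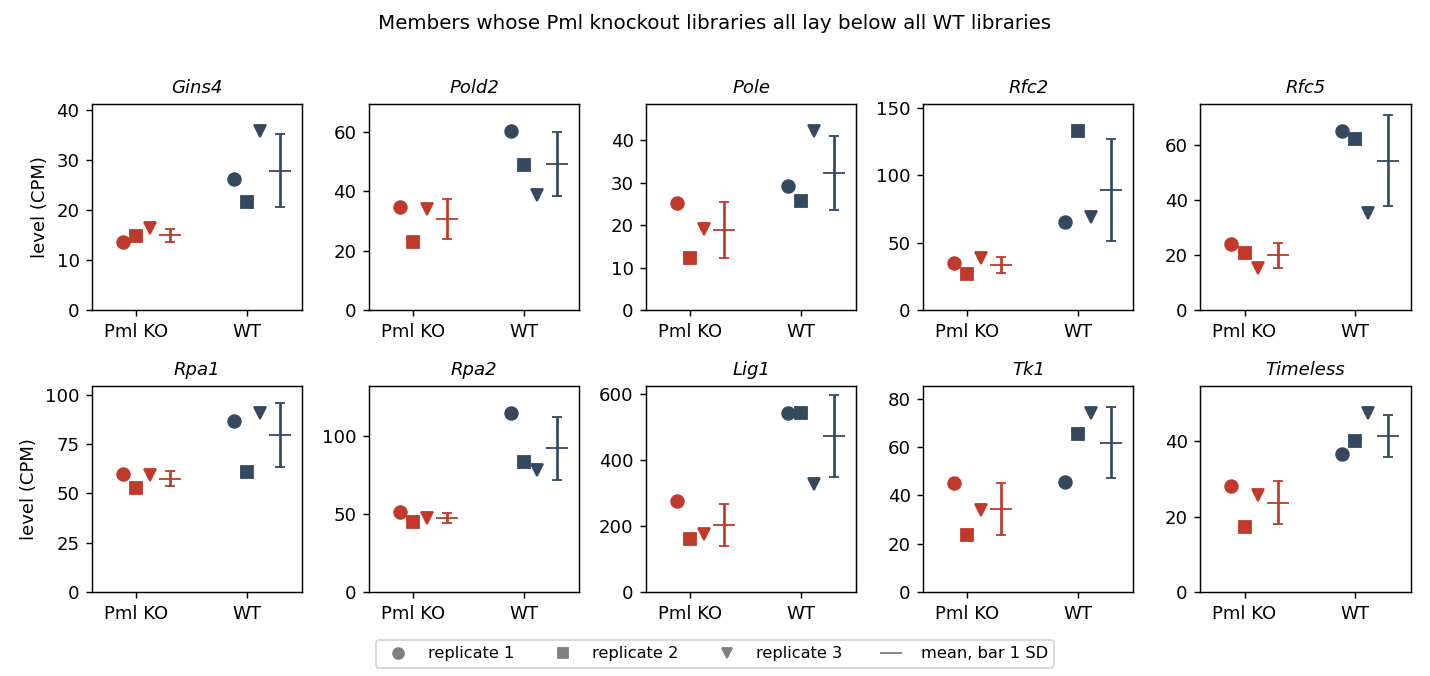
Levels in CPM (vertical axes, from 0) of the 10 genes whose Pml knockout libraries (red, left) all lay below the WT libraries (dark blue-grey, right); symbols are replicates 1 to 3, and the bars are mean and SD. For Rfc5, Lig1, Rpa2 and Pold2, WT replicates 1 and 2 lay above WT replicate 3, while for Gins4, Pole, Tk1 and Timeless WT replicate 3 was the highest.

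Of the Rpa subunits, Rpa1 and Rpa2 had separate genotypes. Rpa2 (ENSMUSG00000028884.14, chr4:132768332-132778752 on the plus strand, GRCm38), the subunit phosphorylated under replication stress, had 50.9, 44.5 and 47.1 CPM in the knockout, against 115, 83.1 and 77.9 CPM in WT. The knockout libraries lay within a narrow band below the lowest WT library. Means were 47.5 ± 3.18 CPM in the knockout and 92.1 ± 20.2 CPM in WT (SD, n = 3 each), with a log2 fold change of -0.96 (SE 0.266), an unadjusted p of 0.00476 and an edgeR adjusted p of 0.212. Rpa1, the main DNA-binding subunit, had 60.0, 52.9 and 59.1 CPM in the knockout, against 86.9, 60.8 and 91.0 CPM in WT. Knockout replicate 1 and WT replicate 2 were almost equal, and the fold change was -0.48 (log2, SE 0.264, edgeR adjusted p 0.395). Rpa3, the smallest subunit, had only 2, 22 and 9 reads in the knockout and 12, 1 and 12 in WT, and the genotypes overlapped (log2 fold change -0.56, SE 0.872).

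Lig1 (ENSMUSG00000056394.17, chr7:13277283-13311433 on the plus strand, GRCm38), the ligase that seals Okazaki fragments, had 1830, 963 and 1172 reads in the knockout, against 1828, 679 and 1443 in WT. Scaled, that is 275, 159 and 175 CPM in the knockout, against 544, 543 and 328 CPM in WT. The genotypes did not overlap, and WT replicates 1 and 2 lay far above WT replicate 3. The WT level was 2.32-fold that of the knockout (log2 fold change -1.21, SE 0.322, unadjusted p 0.00357, edgeR adjusted p 0.208). Fen1, the flap nuclease of the same step, had 17.2, 13.4 and 21.2 CPM in the knockout, against 30.4, 1.60 and 27.2 CPM in WT (log2 fold change -0.27, SE 0.630). WT replicate 2 held 2 Fen1 reads, and the fold change was 0.12 without WT replicate 1, 0.11 with library totals and -0.74 without WT replicate 2.

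Calls for Lig1, Rfc2, Rfc5 and Rpa2, the 4 members with the smallest p, depended on the test. The authors' deposited table gives Rfc5 a log2 fold change of -1.40 with an adjusted p of 0.0163, Rfc2 -1.36 with 0.0197 and Lig1 -1.18 with 0.0453. In the authors' deposited table Rpa2 has -0.93 with an adjusted p of 0.0883, and of its 12349 genes with an adjusted p 1.81% pass lower and 1.13% higher. DESeq2 called 4 members lower, namely Rfc5, Rfc2, Lig1 and Rpa2 (adjusted p 0.0111, 0.0183, 0.0250 and 0.0351), where 1.97% of all genes passed lower and 0.928% higher. The edgeR exact test called 3, Rfc5, Rfc2 and Lig1, with backgrounds of 1.86% lower and 1.3% higher, and voom with library quality weights called the same 4 as DESeq2, with backgrounds of 6.72% lower and 4.26% higher. None of these alternatives called a member higher. Over all 19 alternatives the edgeR, DESeq2 and limma adjusted p ran from 0.00443 to 0.725 for Rfc5, 0.0166 to 0.725 for Rfc2, 0.00580 to 0.725 for Lig1 and 0.00965 to 0.725 for Rpa2. The quality weights were 1.62 for WT replicate 1, 0.392 for WT replicate 2 and 0.353 for WT replicate 3.

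The same 4 genes passed by edgeR without WT replicate 3, where 7.78% of all genes passed lower and 4.81% higher. That comparison keeps the WT libraries with the higher 45S pre-ribosomal RNA shares and hepatocyte sums, and the part of either in the result was not tested. All 18 tested hepatocyte genes had negative fold changes, with a median of -2.58 (log2). With WT replicate 3 as the only WT library, their log2 fold changes were -0.82 for Rfc5, -1.04 for Rfc2, -0.69 for Lig1 and -0.71 for Rpa2, with edgeR adjusted p of 0.182, 0.0669, 0.227 and 0.144. In that comparison 4 other members passed lower, Gins4, Pola1, Pold1 and Rfc3, where 0.336% of all genes passed lower and 0.672% higher. Both comparisons leave the fold changes of Lig1, Rfc2, Rfc5 and Rpa2 negative. Every knockout library lay below every WT library for these 4 genes, so leaving out WT libraries could hardly turn the sign.

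**Figure D3:**
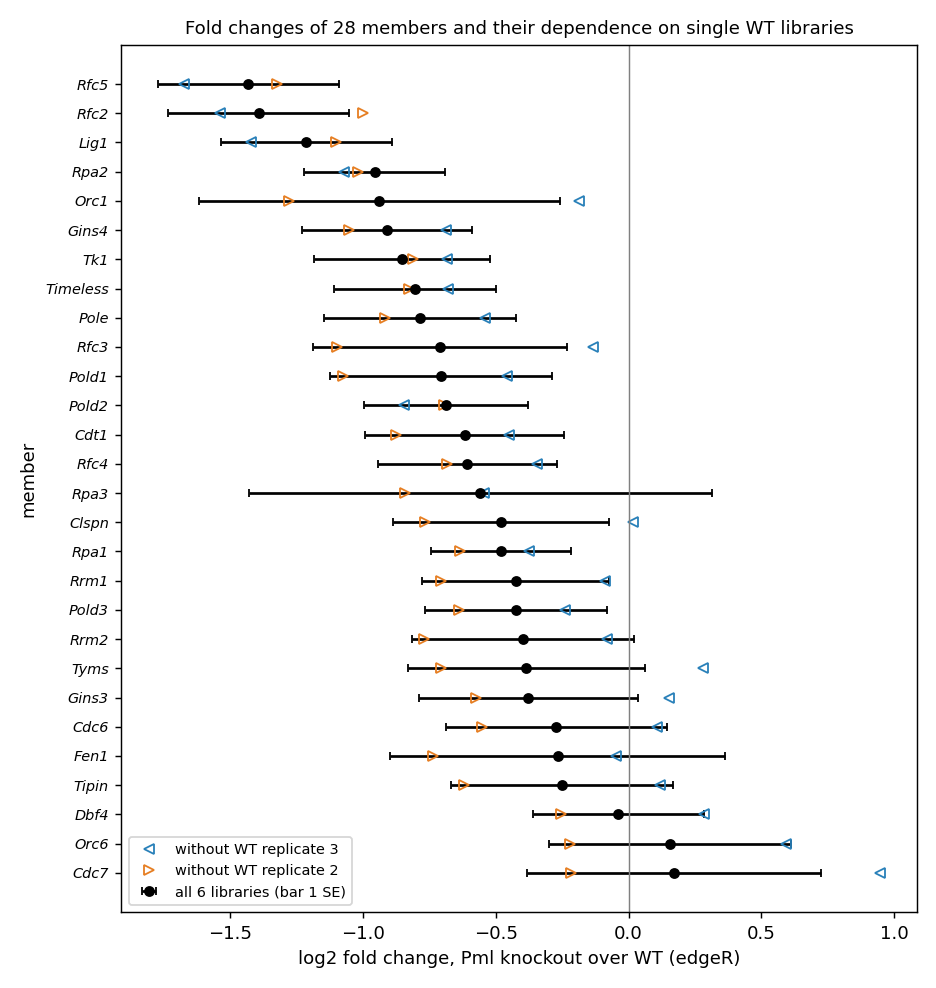
Log2 fold changes (horizontal axis, Pml knockout over WT, edgeR) of 28 members from all 6 libraries (black, bar 1 SE), without WT replicate 3 (blue) and without WT replicate 2 (orange). Without WT replicate 3, Rfc5 stood at -1.68 and Clspn at 0.015; without WT replicate 2 they stood at -1.32 and -0.77.

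Nucleotide synthesis genes had negative fold changes for all 5 members, with a median of -0.40 (log2), and WT replicate 3 was the highest library for each. With library totals as the only scaling, which moved the median of all genes to 0.43, the values were -0.45 for Tk1, -0.07 for Rrm1, -0.04 for Rrm2 and -0.08 for Tyms. Tk1, the thymidine kinase that salvages thymidine in S phase, had 45.0, 23.4 and 34.0 CPM in the knockout, against 45.5, 65.5 and 74.2 CPM in WT. Knockout replicate 1 and WT replicate 1 differed by under 1 CPM, and the other libraries lay well apart. The log2 fold change was -0.85 (SE 0.331, unadjusted p 0.0271, edgeR adjusted p 0.261). Rrm1, the large subunit of ribonucleotide reductase, had 159, 96.8 and 137 CPM in the knockout, against 178, 98.3 and 248 CPM in WT (log2 fold change -0.43, SE 0.352). Rrm2, its S phase subunit, had 112, 74.7 and 106 CPM in the knockout, against 154, 49.6 and 180 CPM in WT (log2 fold change -0.40, SE 0.417). For both subunits WT replicates 1 and 3 lay above the knockout libraries, and without WT replicate 3 the values were -0.09 and -0.08. Tyms, the thymidylate synthase, had 25.6, 18.0 and 24.5 CPM in the knockout, against 23.2, 12.8 and 50.4 CPM in WT. Its fold change of -0.39 (log2, SE 0.447) became 0.28 without WT replicate 3, and it has 1 named pseudogene. Dut, which removes dUTP, had a fold change of -0.29 (log2, SE 0.384).

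Among the fork protection genes, Timeless had separate genotypes. This scaffold of the replication pausing complex had 28.1, 17.3 and 25.8 CPM in the knockout, against 36.6, 40.0 and 47.7 CPM in WT. Its WT values were close together (23.8 ± 5.69 CPM in the knockout and 41.4 ± 5.67 CPM in WT, SD, n = 3 each). The log2 fold change was -0.80 (SE 0.306, unadjusted p 0.0248, edgeR adjusted p 0.255), and it stayed between -1.0 and -0.39 over 19 alternatives. Tipin, its binding partner, had 54.8, 46.7 and 48.6 CPM in the knockout, against 67.3, 21.6 and 86.5 CPM in WT (log2 fold change -0.25, SE 0.418; 0.12 without WT replicate 3 and 0.10 with library totals). Clspn, the claspin adaptor of the checkpoint kinase Chk1, had 52.1, 28.4 and 38.6 CPM in the knockout, against 48.2, 28.8 and 86.7 CPM in WT (log2 fold change -0.48, SE 0.406).

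Other genes of the same processes were read from the same test. Of 38 further replication genes, 37 were tested, 0 passed higher and 0 lower by edgeR, and at an unadjusted p under 0.05 there were 7 lower and 0 higher, against 9.19% and 6.7% of all tested genes. Their median log2 fold change was -0.41, with 28 negative and 9 positive. Mcm7, a subunit of the helicase ring, had 159, 105 and 139 CPM in the knockout, against 315, 268 and 257 CPM in WT (log2 fold change -1.06, SE 0.262, edgeR adjusted p 0.197), with no overlap. Mcm5 of the same ring had a value of -1.17 (SE 0.341, adjusted p 0.220), and Chtf8, of an alternative clamp loader, -1.38 (SE 0.415, adjusted p 0.220). The other ring subunits, named after their values were seen, overlapped between genotypes. Mcm2, Mcm3 and Mcm6 had -0.73, -0.88 and -0.41 (log2), and Mcm4 went the other way at 0.80 (SE 0.572). Of 26 further nucleotide synthesis genes, 0 passed, and 2 were lower and 0 higher at an unadjusted p under 0.05, which as a share lies below the 9.19% of all tested genes. Their median was -0.45. By smallest p, Dctpp1, which clears surplus dCTP, had -0.99 (SE 0.297, adjusted p 0.220). Cad, which starts pyrimidine synthesis, had -1.08 (SE 0.392, adjusted p 0.242).

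Genes of G2 and M phase, the later part of the cycle, had a median log2 fold change of 0.07 over 25 tested genes, with 10 negative and 15 positive and 0 passing by edgeR (1 lower and 0 higher at an unadjusted p under 0.05, also a share below the background). They nevertheless followed the same order of libraries within WT. Relative to each gene's own mean, the median G2 and M gene stood at 0.31, -0.21 and 0.07 (log2) in knockout replicates 1 to 3, against 0.01, -0.76 and 0.55 in WT replicates 1 to 3. The median replication gene of the set stood at 0.10, -0.46 and -0.09 in the knockout, against 0.33, -0.54 and 0.77 in WT. WT replicate 2 was thus low and WT replicate 3 high for both lists. Taken within each library, the median of the set minus that of the G2 and M genes was -0.20, -0.25 and -0.15 in the knockout, against 0.32, 0.22 and 0.22 in WT. This difference was lower in each of the 3 knockout libraries than in each of the 3 WT libraries. Each gene is centred on these same 6 libraries, so the signs around 0 largely restate the median fold changes of -0.43 and 0.07. The difference was computed after the values were seen and carries no test.

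**Figure D4:**
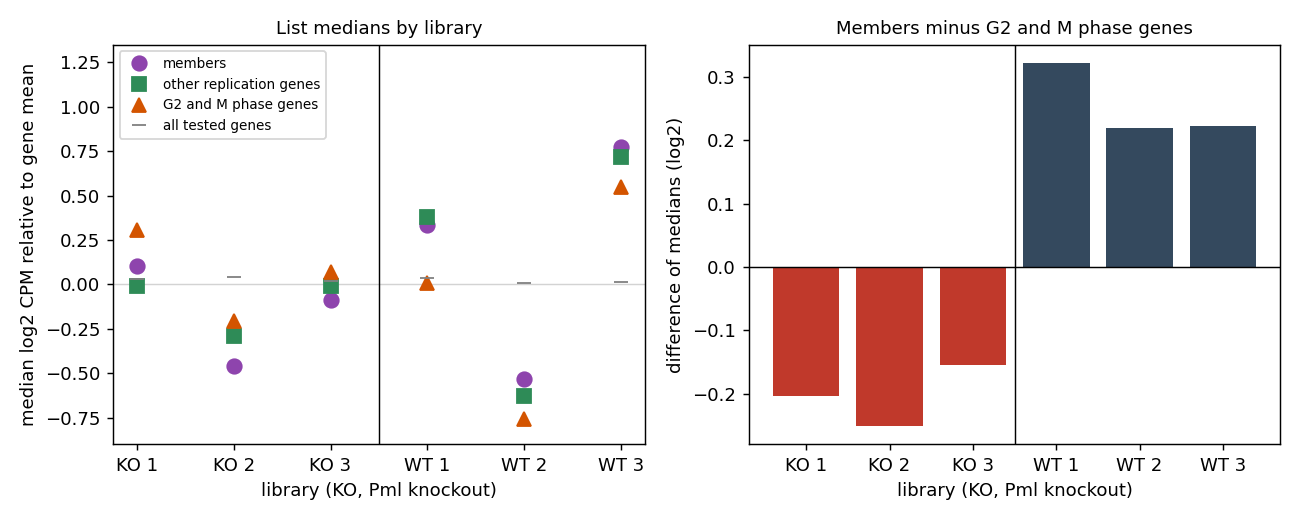
Left, median log2 CPM relative to each gene's mean in each library (horizontal axis) for the 38 genes, the other replication genes, the G2 and M phase genes and all tested genes; right, the median of the 38 genes minus that of the G2 and M phase genes (log2). The right-hand bars are -0.20, -0.25 and -0.15 in the Pml knockout libraries, against 0.32, 0.22 and 0.22 in the WT libraries.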

How the data were processed

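Polyadenylated RNA was profiled in 3 Pml knockout and 3 WT libraries with a 3′ tag kit, per the labels' protocols. The deposited counts are whole reads for each gene symbol, without normalization, per the file headers. FastQC, HISAT2, HTSeq, edgeR and mm10 are named in the submitters' processing notes; the sources used here give no versions, annotation or strand setting. The authors' deposited log2 fold changes and p-values, per the file headers, were used only where named as theirs. Per-sample columns left unused numbered 6, the authors' scaled counts.

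Counts were analysed with R 4.3.3, edgeR 4.0.16, limma 3.58.1 and DESeq2 1.42.0. Genes passed edgeR's default filter (minimum count 10, total 15), which left 11317 of 24421, 8329 being at 0 in every library. The test was the robust quasi-likelihood F test with trimmed mean of M values factors, adjusted over all tested genes at 0.05; the SE is the fold change divided by the square root of F. Simulated counts with 3 libraries per group were drawn independently for each gene, so they lack the shifts shared by many genes of a library. In them the test recovered 66% of genes set 4-fold higher in the knockout and 62% of those set 4-fold lower. It recovered 8% of genes set 2-fold higher and 8% of those set 2-fold lower. A lack of calls therefore says little about changes near 2-fold. CPM uses the same factors, and values relative to a gene's mean are log2 CPM with a prior count of 1. Totals ran from 1775152 to 5917505; 0 reads allow up to 3 counts, and this limit covers counting error only. Every library pair differed beyond sampling noise.

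The members and lists were chosen with earlier results of these data known. Up to 4 members per role are described in full: first those whose genotypes do not overlap, then by p, and up to 3 genes by p from other lists; further members were named after their values were seen. Coordinates are from GENCODE M21 (GRCm38, the assembly of mm10), and promoter windows from RefSeq GRCm38.p6. Alternatives covered other scalings, filters and tools, the replicate number as a block, left-out libraries, and removal of the Rn45s row or the hepatocyte list.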

Additional observations from a re-analysis of the deposited data

How the results depend on the processing

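No alternative called a member higher. Members called lower numbered 4 by DESeq2, 4 by voom with quality weights, 3 by the edgeR exact test, and 0 to 4 with single libraries left out (4 without WT replicate 3). The number was 0 under the other alternatives, except with WT replicates 1 and 2 both left out. Calls there rest on 1 WT library and are not read. Over all genes the count higher, 1 in the report, was 0 with DESeq2 size factors, library totals, a minimum of 5 CPM, voom and without the Rn45s row. No count filter gave 2 lower. DESeq2 gave 105 higher and 223 lower, voom with quality weights 482 and 760, the exact test 147 and 211, and WT replicate 3 alone 76 and 38. Single libraries left out gave 0 to 544 higher and 0 to 881 lower, both highest without WT replicate 3. The cause was not tested.

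The members' median log2 fold change lay between -0.70 (without WT replicate 2) and -0.06 (without WT replicate 3) with single libraries left out, and was -0.39 without the 4 members with the smallest p, an alternative chosen after seeing the data. Library totals shifted the median of all genes to 0.43 and that of the members to -0.07, a difference of -0.50, beside -0.42 in the report.

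Of 28 members followed, signs turned with library totals for Cdc6 (0.076), Dbf4 (0.32), Fen1 (0.11) and Tipin (0.10). With WT replicate 3 as the only WT library Orc6 had -0.45 and Cdc7 -0.65. With single libraries left out the ranges were -0.22 to 0.59 for Orc6, -0.22 to 0.95 for Cdc7, -0.55 to 0.11 for Cdc6, -0.26 to 0.28 for Dbf4, -0.57 to 0.15 for Gins3, -0.74 to 0.12 for Fen1, -0.70 to 0.28 for Tyms, -0.62 to 0.12 for Tipin and -0.77 to 0.015 for Clspn.

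The replicate numbers pair nothing in the labels, and deviations of same-numbered replicates correlated at 0.02, 0.09 and 0.18. The library names run from C1 to C3 in WT and from KO2 to KO4 in the knockout. Libraries with the same number in their names correlated at 0.06 (knockout replicate 1 with WT replicate 2) and -0.07 (knockout replicate 2 with WT replicate 3). Knockout replicate 1 correlated best with WT replicate 2. The replicate block gave 1 gene higher and 1 lower, 0 members, a members' median of -0.34, and Dbf4 at 0.013 and Fen1 at 0.11.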
